A study of Mus musculus with 16 samples.

Results

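Interferon-stimulated genes were examined in the hippocampus of 16 mice as a panel of 35 genes that cells switch on when interferon reaches them. For each gene, the probe set carrying that gene symbol alone was taken, and where a gene had more than 1 such probe set, the one with the highest mean over the 16 arrays. Of the 35 members, 33 had such a probe set, out of 18193 genes measured in this way, and 24 passed the filter on low values (over 4 log2 on at least 4 arrays), out of 11464 genes that passed. The other 9 (Ddx58, Dhx58, Irf7, Mx1, Mx2, Oas1a, Oas2, Parp14 and Usp18) were measured but not tested, and Isg15 and Ifi44 were not analysed here, the former because its probe set is shared with a further gene symbol.

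All 16 mice were males aged 12 months, and each array held hippocampal RNA of 1 mouse. SAMP8, a senescence-accelerated line with memory deficits at that age, was studied untreated (SAMP8, 4 mice), after intravenous oligonucleotide of random sequence (Random antisense, 4 mice) or after intravenous antisense oligonucleotide against AβPP, the amyloid-β precursor protein (AβPP antisense, 4 mice). The reference group (Control, 4 mice) was also untreated and came from a 50% backcross of SAMP8 with CD-1 mice, so that it shares much of the SAMP8 genome and had no memory deficit. Dose, number of injections and time from the last injection to dissection are not given in the sources used here. Values are log2 expression levels, in which a difference of 1 log2 is a doubling, and levels are compared only within a gene. The questions addressed by the design were whether the lines differed and whether either oligonucleotide changed expression in SAMP8.

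Interferons are secreted proteins that warn cells of viral infection. Type I interferons act through the receptor Ifnar1 and Ifnar2 with the kinases Jak1 and Tyk2, and a complex that contains Stat2 and Irf9 then binds the interferon-stimulated response element in promoters. Interferon gamma acts through Ifngr1 and Ifngr2 and mainly drives genes with a gamma-activated site, among them Irf1 and the immunity GTPases. In brain tissue these genes are at low levels in neurons and are induced in microglia, astrocytes, endothelial cells and infiltrating leukocytes.

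Promoters of members were compared with those of other genes, because 32 of the 33 measured members were highest on the same array, as described below. The shares given here describe the listed genes and use no array values. RefSeq sequences on assembly GRCm38.p6, running from 250 bases before to 50 bases after each transcript start, were at hand for 26 members (31 promoters). A core letter pattern of the response element, GAAA and GAAA with any 2 bases between them, searched on both strands, occurred in 16 of these 26 members (61.5%), against 3.99% of 27025 genes and 3.44% of 32851 promoters. A pattern of the gamma-activated site, TTCNNNGAA, which reads alike on both strands, occurred in 7 of 26 members (26.9%), against 9.55% of genes and 8.30% of promoters, and the patterns overlapped at 1 place in the member promoters. Bst2, Eif2ak2, Igtp and Oas1a held both patterns. The windows below show the first pattern, in capitals, in members whose values are described further on, all upstream of the start, 5′ to 3′ on the strand of the gene; where capitals run past 10 letters, matches overlap.
Trim30a (chr7:104465195-104465254, minus strand): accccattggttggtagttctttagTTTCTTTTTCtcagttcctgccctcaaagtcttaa
Gbp3 (chr3:142559974-142560039, plus strand): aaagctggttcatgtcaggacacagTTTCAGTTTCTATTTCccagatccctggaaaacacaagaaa
Oas1a (chr5:120907526-120907570, minus strand): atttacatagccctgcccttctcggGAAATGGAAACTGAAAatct
Bst2 (chr8:71537562-71537627, minus strand): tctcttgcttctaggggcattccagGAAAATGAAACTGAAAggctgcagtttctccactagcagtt
Igtp (chr11:58199497-58199555, plus strand): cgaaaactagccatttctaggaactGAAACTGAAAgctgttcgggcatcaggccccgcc
Rsad2 (chr12:26456538-26456597, minus strand): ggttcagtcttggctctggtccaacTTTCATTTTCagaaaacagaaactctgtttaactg
Ifit3 (chr19:34583348-34583441, plus strand): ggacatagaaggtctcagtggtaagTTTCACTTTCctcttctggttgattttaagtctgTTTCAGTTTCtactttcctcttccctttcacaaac
Ifit1 (chr19:34640760-34640838, plus strand): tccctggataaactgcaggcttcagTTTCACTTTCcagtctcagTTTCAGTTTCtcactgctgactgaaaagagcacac

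A match to these letters is a description of the sequence and does not show that a factor binds there. The first match began 36 bases before the start in Trim30a, 45 in Gbp3, 20 in Oas1a, 130 in Bst2, 34 in Igtp, 120 in Rsad2, 156 in Ifit3 and 104 in Ifit1. Usp18, Oas2, Ifi27, Dhx58, Mx1, Mx2, Iigp1, Parp14 and Rtp4 had no entry among the promoters used here.

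One array stood apart from the rest before any groups were compared. Control 4 was the highest of the 16 arrays for 32 of the 33 measured members and for 23 of the 24 tested members, against 18% of the 11464 genes tested. The exception was Iigp1. Relative to the median of the 14 arrays other than Control 4 and AβPP antisense 2, its median deviation over the 33 members was 3.48 log2, or 11.1-fold. It was over 1 log2 above the median of the 16 arrays for 23 of 24 tested members, against 7.45% of all genes tested. All 33 measured members were over 4 log2 on Control 4, while between 20 and 24 of them were on each other array. Each comparison is given with and without Control 4, as was fixed with the design.

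**Figure D1:**
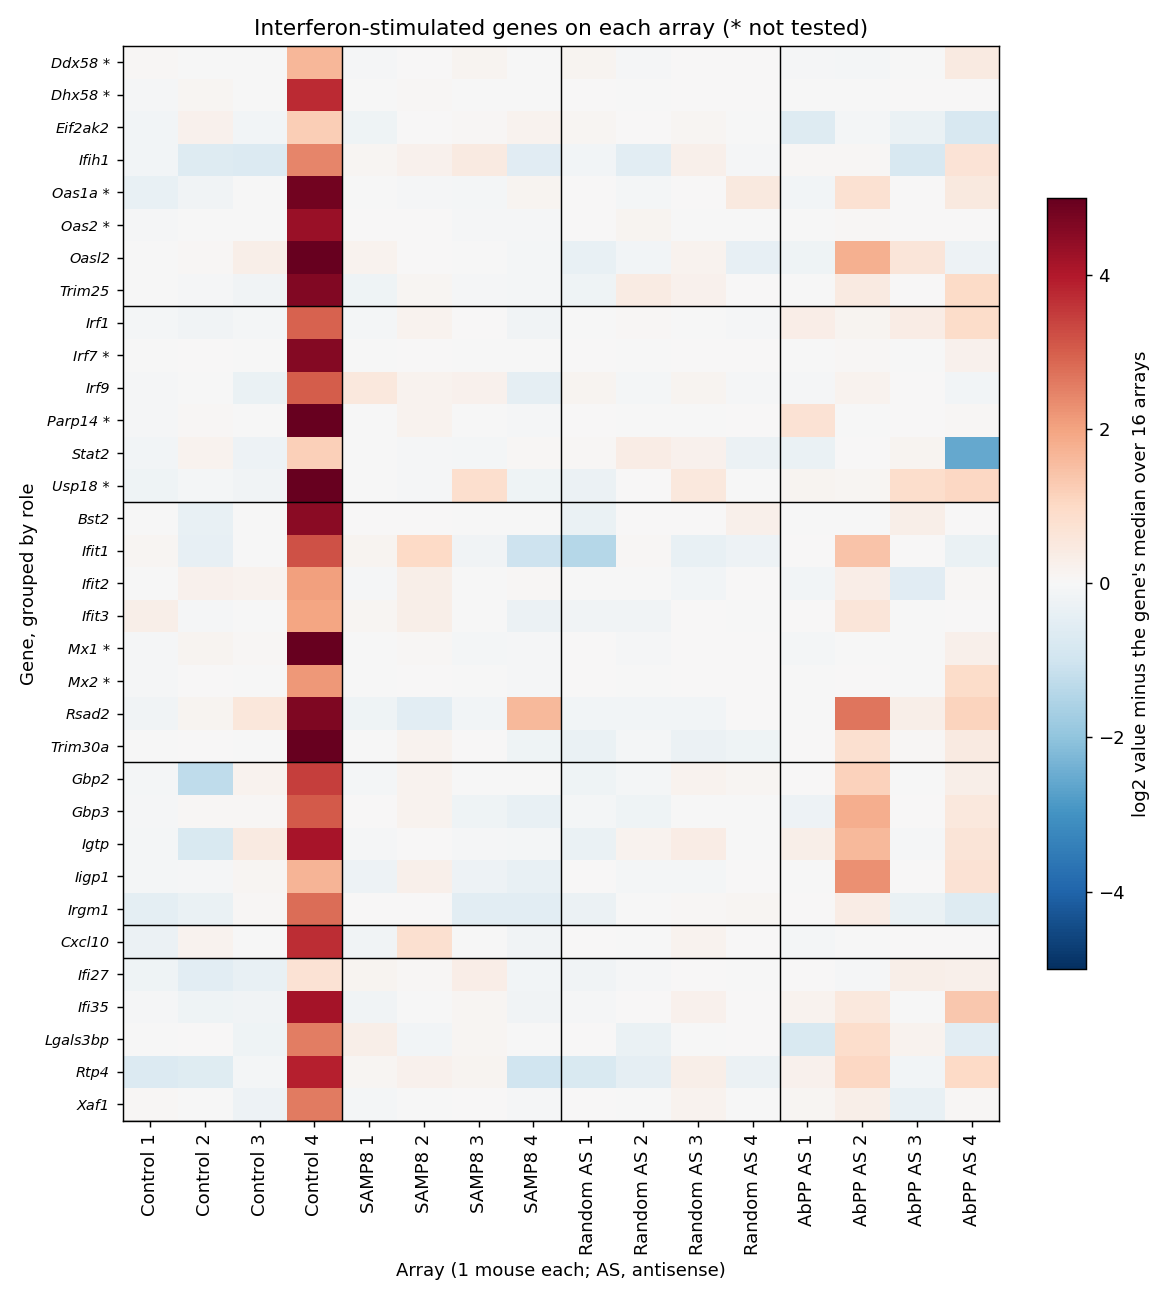
Log2 level of each of the 33 measured members (rows, grouped by role) on each of the 16 arrays (columns, 1 mouse each), as the difference from the median of that gene over the 16 arrays; an asterisk marks the 9 genes that were not tested. Control 4 is raised in nearly every row, AβPP antisense 2 is raised mainly in the rows of the immunity GTPases and some antiviral genes, and Stat2 is low on AβPP antisense 4.

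Cell type markers differed on Control 4 along with the members. Of 6 tested markers shared by all leukocytes, 6 were highest on Control 4, as were 11 of 11 measured, and their median deviation from the median of 14 arrays (all but Control 4 and AβPP antisense 2) was 5.46, against -0.44 to 0.97 on those 14. Ptprc, the surface phosphatase CD45 of leukocytes, was at 12.5 on Control 4 and between 5.07 and 6.90 on the others. The summed linear level of the 6 markers was 3011 to 3714 on Control 1 to 3 and 41970 on Control 4, and it was 3685 to 3952 in SAMP8, 3523 to 4220 in Random antisense and 3109 to 5301 in AβPP antisense. Myeloid and dendritic markers were highest on Control 4 for 10 of 11 measured, with the neutrophil granule gene Mpo at 9.84 against 2.09 to 2.19 elsewhere. Their summed level, over 5 tested markers, was 16410 on Control 4 and at most 457.2 on Control 1 to 3.

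Markers of T and NK cells were highest on Control 4 for 1 of 12 measured, Cd2, at 3.32 against 2.48 to 2.71 elsewhere. Cd3d, Cd3e and Cd3g were at 2.15, 2.49 and 2.13 on Control 4 and between 2.13 and 2.85 on the others, a level at which a low transcript level and none look alike. Among markers of B and plasma cells, Ighm, Jchain and Cd79b were highest on Control 4 (3 of 9 measured), while Cd79a, Cd22, Blk and Pax5 were near the lowest values of the array. Microglia markers were highest on Control 4 for 8 of 14, with a median deviation of 0.66; those highest included Itgam (8.15, at most 4.97 elsewhere), Tyrobp (12.4 and 10.02), C1qc (9.44 and 8.5), Fcrls (7.43 and 6.72) and Cx3cr1 (9.79 and 9.75). P2ry12, Trem2, Gpr34, Tmem119 and Aif1 were inside the range of the other arrays, at 8.76, 6.57, 7.92, 6.48 and 8.82. Markers of hippocampal neurons were highest on Control 4 for 0 of 12, with a median deviation of -0.83. In bulk tissue, more cells of a type and more RNA per cell cannot be told apart. What part these cells have in the level of the members was not tested.

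Of the 14 measured markers of hippocampal neurons, Grin2a and Iyd were under 4 log2 on every array, Spink8 on AβPP antisense 2 (2.78) and Tdo2 on several, Control 4 among them (2.34). The others were over 4 log2 on all arrays, as in Camk2a, a kinase gene of excitatory neurons, at 11.02 on Control 4 and 11.3 to 12.3 elsewhere. The 3′ minus 5′ difference of beta-actin probe sets, which grows as RNA degrades, was 0.84 on Control 4, 3.89 on AβPP antisense 4 and 1.02 to 1.60 on the other 14. The same difference for Gapdh was 1.26 on AβPP antisense 4 and between -0.41 and 0.02 on the other 15. Over the probe sets tested, the median of an array's correlations with the remaining 15 was lowest on AβPP antisense 4 (0.905) and Control 4 (0.922).

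RNA sensors and RNA-directed effectors were highest on Control 4 for 8 of 8 measured genes, of which 4 passed the filter. Oasl2, of the oligoadenylate synthetase family, was at 3.72, 3.78, 4.04 and 8.75 on Control 1 to 4 and at 3.91, 3.75, 3.72 and 3.65 on SAMP8 1 to 4. It was at 3.35, 3.59, 3.89 and 3.34 on Random antisense 1 to 4 and at 3.5, 5.51, 4.36 and 3.49 on AβPP antisense 1 to 4. Oasl2 was therefore raised on Control 4 and, less, on AβPP antisense 2, and the groups overlapped throughout. Ifih1, a helicase that detects long double-stranded RNA, was at 5.51, 4.98, 4.97 and 8.09 in Control and at 5.75, 5.85, 6.09 and 5.08 in SAMP8. Its levels were 5.50, 5.10, 5.89 and 5.59 in Random antisense and 5.72, 5.70, 4.84 and 6.31 in AβPP antisense. Control 4 was again the highest, and the groups overlapped.

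Eif2ak2, the kinase PKR that halts translation on binding double-stranded RNA, went the other way from most members in the AβPP antisense mice. It was at 6.02, 6.35, 6.0 and 7.38 in Control, 5.93, 6.16, 6.19 and 6.31 in SAMP8 and 6.23, 6.17, 6.26 and 6.11 in Random antisense. In AβPP antisense it was at 5.49, 6.05, 5.80 and 5.34, all below the 4 Random antisense mice. Trim25, a ubiquitin ligase that activates RNA sensing, was at 9.21 on Control 4 and between 4.34 and 5.54 on the other arrays. Dhx58 and Ddx58, helicases of the RIG-I family, and the synthetases Oas1a and Oas2 were over 4 log2 only on Control 4, at 6.12, 4.63, 7.91 and 6.91. On the other 15 arrays these 4 genes lay between 2.31 and 3.84.

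Signalling and transcription genes were highest on Control 4 for 6 of 6 measured, of which 3 passed the filter. Irf7, the regulator that amplifies type I interferon production, was at 1.64, 1.69, 1.65 and 6.24 in Control, 1.66, 1.69, 1.64 and 1.65 in SAMP8, 1.69, 1.66, 1.70 and 1.67 in Random antisense and 1.66, 1.71, 1.66 and 1.88 in AβPP antisense. Usp18, the protease that removes Isg15 from proteins and dampens receptor signalling, was at 2.88, 2.97, 2.89 and 9.09 in Control and 3.06, 3.03, 3.90 and 2.84 in SAMP8. It was at 2.80, 3.09, 3.58 and 3.06 in Random antisense and 3.22, 3.17, 3.94 and 4.13 in AβPP antisense. Usp18 showed the largest deviation of any member on Control 4, 6.03 log2 above the median of the other arrays. Parp14, an ADP-ribosyltransferase, was at 8.16 on Control 4 and at 2.22 to 3.01 elsewhere.

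Irf9, the DNA-binding subunit of the type I complex, was well above the lowest values on every array. It was at 5.59, 5.63, 5.31 and 8.67 in Control, 6.18, 5.83, 5.88 and 5.22 in SAMP8, 5.81, 5.57, 5.79 and 5.62 in Random antisense and 5.61, 5.82, 5.69 and 5.52 in AβPP antisense. Stat2, its partner, was at 5.41, 5.71, 5.26 and 6.72 in Control, 5.50, 5.49, 5.44 and 5.60 in SAMP8, 5.59, 5.88, 5.75 and 5.23 in Random antisense and 5.21, 5.56, 5.66 and 2.98 in AβPP antisense. The low value of Stat2 came from AβPP antisense 4, the array with the largest 3′ minus 5′ differences of beta-actin and Gapdh. A dimmer Stat2 probe set, not tested, was at 3.23 on that array and at 3.11 to 4.03 on the others apart from Control 4. At this level a fall could hardly be seen, so that the low value rests on 1 of the 2 Stat2 probe sets. What part RNA quality has in it was not tested.

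Antiviral effectors were highest on Control 4 for 8 of 8 measured genes. Ifit3, one of the tetratricopeptide proteins that bind viral RNA, was at 8.29, 7.97, 7.99 and 9.99 in Control and 8.13, 8.31, 8.01 and 7.73 in SAMP8. It was at 7.84, 7.84, 8.03 and 8.01 in Random antisense and 8.02, 8.62, 8.02 and 8.05 in AβPP antisense. Outside Control 4 and AβPP antisense 2, Ifit3 stayed within 7.73 to 8.31. Ifit1 and Ifit2, its relatives, reached 7.41 and 9.49 on Control 4, against 2.80 to 5.67 and 6.90 to 7.77 on the others.

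Bst2, the tetherin that holds budding virus at the cell surface, was at 4.14, 3.79, 4.11 and 8.66 in Control, 4.16, 4.16, 4.14 and 4.13 in SAMP8, 3.82, 4.15, 4.15 and 4.38 in Random antisense and 4.15, 4.13, 4.44 and 4.16 in AβPP antisense. Unlike most other antiviral members, it was not high on AβPP antisense 2. Rsad2 (viperin), an enzyme that makes a chain-terminating nucleotide, was at 9.51 on Control 4, 7.52 on AβPP antisense 2, 6.47 on SAMP8 4 and 4.30 to 5.94 on the rest. Trim30a, a negative regulator of inflammatory signalling, was at 10.8 on Control 4 and 5.31 to 6.45 on the others. Mx1 and Mx2, dynamin-like GTPases that trap viral particles, were over 4 log2 only on Control 4, at 7.97 and 4.34, and lay between 2.11 and 3.17 elsewhere.

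Immunity GTPases, which attack membranes around intracellular pathogens, were raised on both Control 4 and AβPP antisense 2. Iigp1 was at 3.82, 3.85, 4.02 and 5.61 in Control, 3.64, 4.18, 3.65 and 3.55 in SAMP8, 3.93, 3.81, 3.82 and 3.92 in Random antisense and 3.91, 6.19, 3.91 and 4.64 in AβPP antisense. It was the only member whose highest array was AβPP antisense 2. A second Iigp1 probe set, dimmer and not tested, was instead highest on Control 4. Gbp3, a guanylate-binding protein, was at 6.68, 6.77, 6.77 and 9.78 in Control, 6.73, 6.89, 6.53 and 6.37 in SAMP8, 6.63, 6.5, 6.72 and 6.72 in Random antisense and 6.48, 8.54, 6.73 and 7.24 in AβPP antisense.

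Igtp, an immunity-related GTPase like Iigp1, was at 4.85, 4.18, 5.38 and 9.04 in Control, 4.88, 4.95, 4.86 and 4.85 in SAMP8, 4.59, 5.11, 5.31 and 4.91 in Random antisense and 5.22, 6.54, 4.89 and 5.56 in AβPP antisense. Gbp2 reached 10.7 on Control 4 and 8.39 on AβPP antisense 2, and was between 5.98 and 7.51 on the rest. Irgm1, a regulator of the other immunity-related GTPases, reached 8.34 and 5.91 on these arrays and was between 4.92 and 5.65 on the rest. For all 5 GTPases the order of the arrays thus placed Control 4 and AβPP antisense 2 above every other mouse.

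Cxcl10, the chemokine that draws activated T cells, was at 3.87, 4.33, 4.13 and 7.84 in Control, 3.97, 4.96, 4.13 and 4.00 in SAMP8, 4.17, 4.15, 4.35 and 4.19 in Random antisense and 4.07, 4.15, 4.17 and 4.18 in AβPP antisense. It was flat on AβPP antisense 2, unlike the GTPases. Of the remaining members, Ifi35 was at 11.3 on Control 4 (6.87 to 8.43 on the others), the receptor-trafficking gene Rtp4 at 9.87 (4.98 to 6.99), the pro-apoptotic Xaf1 at 9.82 (6.87 to 7.51) and the secreted glycoprotein Lgals3bp at 8.52 (5.22 to 6.86). Ifi27, a mitochondrial protein gene with a high level on every array, differed least among these, at 10.5 on Control 4 and 9.20 to 10.1 elsewhere.

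**Figure D2:**
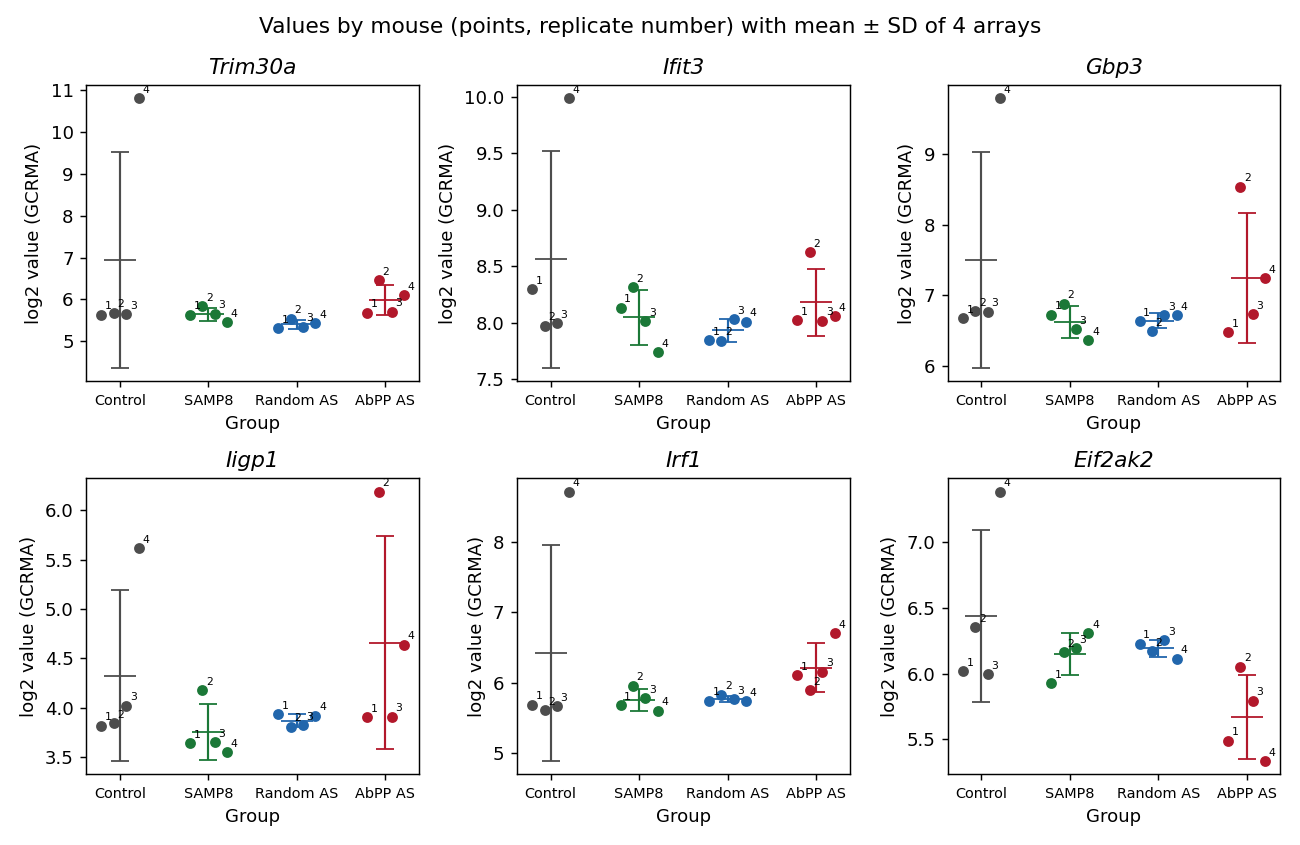
Log2 level of 6 members by group, with a point per mouse labelled by its replicate number and the mean ± SD of 4 arrays. Control 4 is the highest point for Trim30a, Ifit3, Gbp3, Irf1 and Eif2ak2, AβPP antisense 2 is the highest for Iigp1, and the 4 AβPP antisense points of Eif2ak2 lie below those of Random antisense.

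Between the lines, most members had a lower mean in SAMP8 with all arrays and similar means without Control 4. With all arrays, the median difference (SAMP8 minus Control) was -0.70 log2 over the 24 tested members, with 23 lower and 1 higher, against a median of 0.04 and 60.2% higher over all genes tested. The differences ran from -1.32 for Oasl2, at 3.76 ± 0.11 in SAMP8 and 5.07 ± 2.46 in Control (SD, n = 4), to 0.19 for Ifi27. In limma, 0 of 24 members passed an adjusted p of 0.05 (genes tested, 0.227%), 0 had an unadjusted p under that value (3.77%), and the lowest adjusted p was 0.999. No member separated the 4 SAMP8 from the 4 Control mice, against 4.52% of genes.

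Without Control 4, 0 of 24 members were called either (genes tested, 0.227%). The median difference was 0.06, with 18 higher and 6 lower, and the differences ran from -0.14 for Iigp1 to 0.54 for Ifih1. The median half-width of the 95% interval narrowed from 1.2 to 0.5 log2, and the number of members whose interval lay within 1 log2 of 0 rose from 2 to 17 of 24 (all genes tested, 87.8% and 92.8%). A doubling or halving in SAMP8 therefore lay outside the interval of those 17 members and inside that of Ifit1, Stat2, Ifih1, Rsad2, Gbp2, Iigp1 or Rtp4 in at least 1 direction. Ifi27 alone separated the groups, with 9.36 ± 0.16 on Control 1 to 3 and 9.83 ± 0.20 in SAMP8, a difference of 0.47 (SE 0.13) whose adjusted p of 0.323 did not pass in limma; it was the 1 member with an unadjusted p under 0.05 (genes tested, 3.14%). Separation of this kind was seen for 9.38% of genes.

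**Figure D3:**
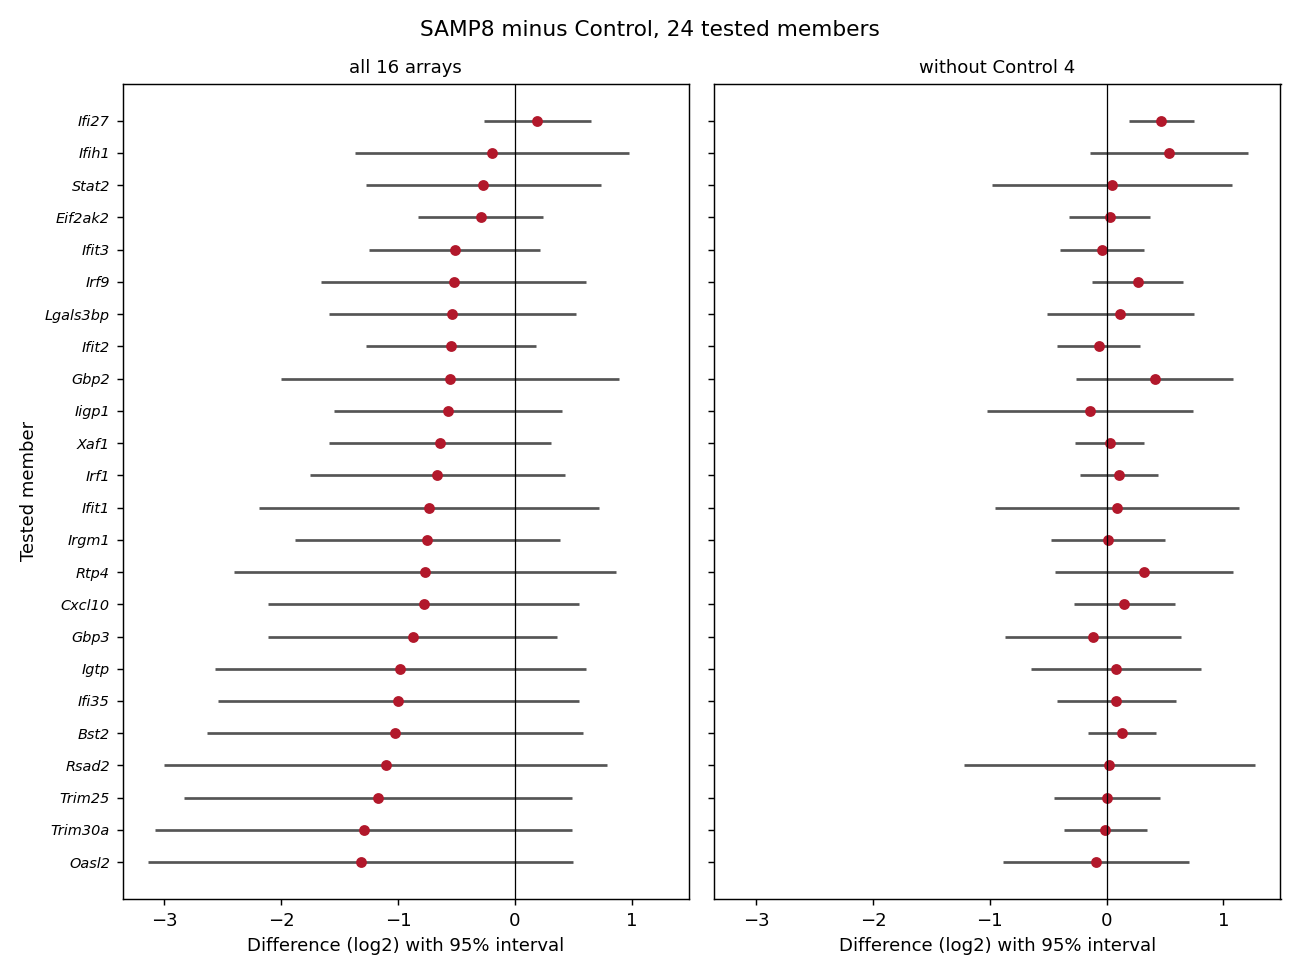
Difference between SAMP8 and Control (log2, x axis) with its 95% interval for each of the 24 tested members (y axis), from the limma fit with all 16 arrays on the left and without Control 4 on the right. On the left 23 of 24 points are below 0 with wide intervals; on the right 18 are above 0, with a median of 0.06.

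After AβPP antisense, most members had a higher mean than after the random oligonucleotide, and none passed the threshold. The median difference (AβPP antisense minus Random antisense) was 0.25 log2, with 17 of 24 higher and 7 lower, against a median of 0.04 and 56.8% higher over all genes tested. It ran from -0.76 for Stat2 to 1.10 for Rsad2, which was at 5.84 ± 1.22 after AβPP antisense and 4.75 ± 0.08 after the random sequence. In limma 0 of 24 were called (genes tested, 0.0262%) and 0 had an unadjusted p under 0.05 (8.83%), with the lowest adjusted p at 0.416 for Eif2ak2. By role, the median was 0.57 for the GTPases, 0.41 for antiviral effectors, 0.19 for the remaining members, 0.18 for RNA sensing and -0.04 for signalling.

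Groups did not overlap for 3 of 24 members in this comparison, against 6.94% of genes. Irf1, a transcription factor that interferon gamma induces, was at 5.74, 5.83, 5.77 and 5.73 after the random sequence and at 6.11, 5.89, 6.16 and 6.70 after AβPP antisense, a difference of 0.45. Trim30a was at 5.31, 5.54, 5.35 and 5.43 against 5.68, 6.45, 5.71 and 6.10, a difference of 0.58. Both were higher in all 4 AβPP antisense mice with the probe sets used. A second tested Trim30a probe set differed by 0.40 and overlapped, at 4.83 to 5.18 after the random sequence and 5.02 to 6.02 after AβPP antisense. Eif2ak2, described above, was lower in all 4, at 5.67 ± 0.32 against 6.19 ± 0.06, and a second tested Eif2ak2 probe set differed by only -0.08. Over all genes tested, 4.68% were higher and 2.26% lower without overlap.

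The estimate of spread is shared by the 4 groups, so that Control 4 enters this comparison as well. Without it the differences are the same, 4 of 24 members had an unadjusted p under 0.05 (genes tested, 14.2%) and 0 were called in limma (0.131%), with adjusted p values of 0.122 for Trim30a, 0.139 for Eif2ak2, 0.173 for Irf1 and 0.243 for Rtp4. Without AβPP antisense 2 as well, an omission chosen after the values were seen, Eif2ak2 passed (difference -0.65, adjusted p = 0.0396 in limma). Without AβPP antisense 4 in addition, Eif2ak2 (-0.55, adjusted p = 0.0276) and Irf1 (0.36, adjusted p = 0.0381) passed in limma, and the median of the 24 members was 0.02. The median of the members was 0.15 without AβPP antisense 2 alone. For the fits chosen after the values were seen, the share of all genes called is not given, so these calls lack that reference.

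After the random oligonucleotide, members had means close to those of untreated SAMP8. The median difference (Random antisense minus SAMP8) was -0.03, with 10 higher and 14 lower, from -0.48 for Ifit1 to 0.22 for Irgm1, beside a median of -0.01 over all genes tested. In limma 0 of 24 were called (genes tested, 0%) and 0 had an unadjusted p under 0.05 (1.04%), and each adjusted p was 1. Without Control 4, 0 were called and 0 had an unadjusted p under 0.05 (2.23%), and the 95% interval lay within 1 log2 of 0 for 21 of 24 members, all but Ifit1, Stat2 and Rsad2. No member separated these groups, against 9.07% of genes. This comparison shares its mice with the one before and the one after it.

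**Figure D4:**
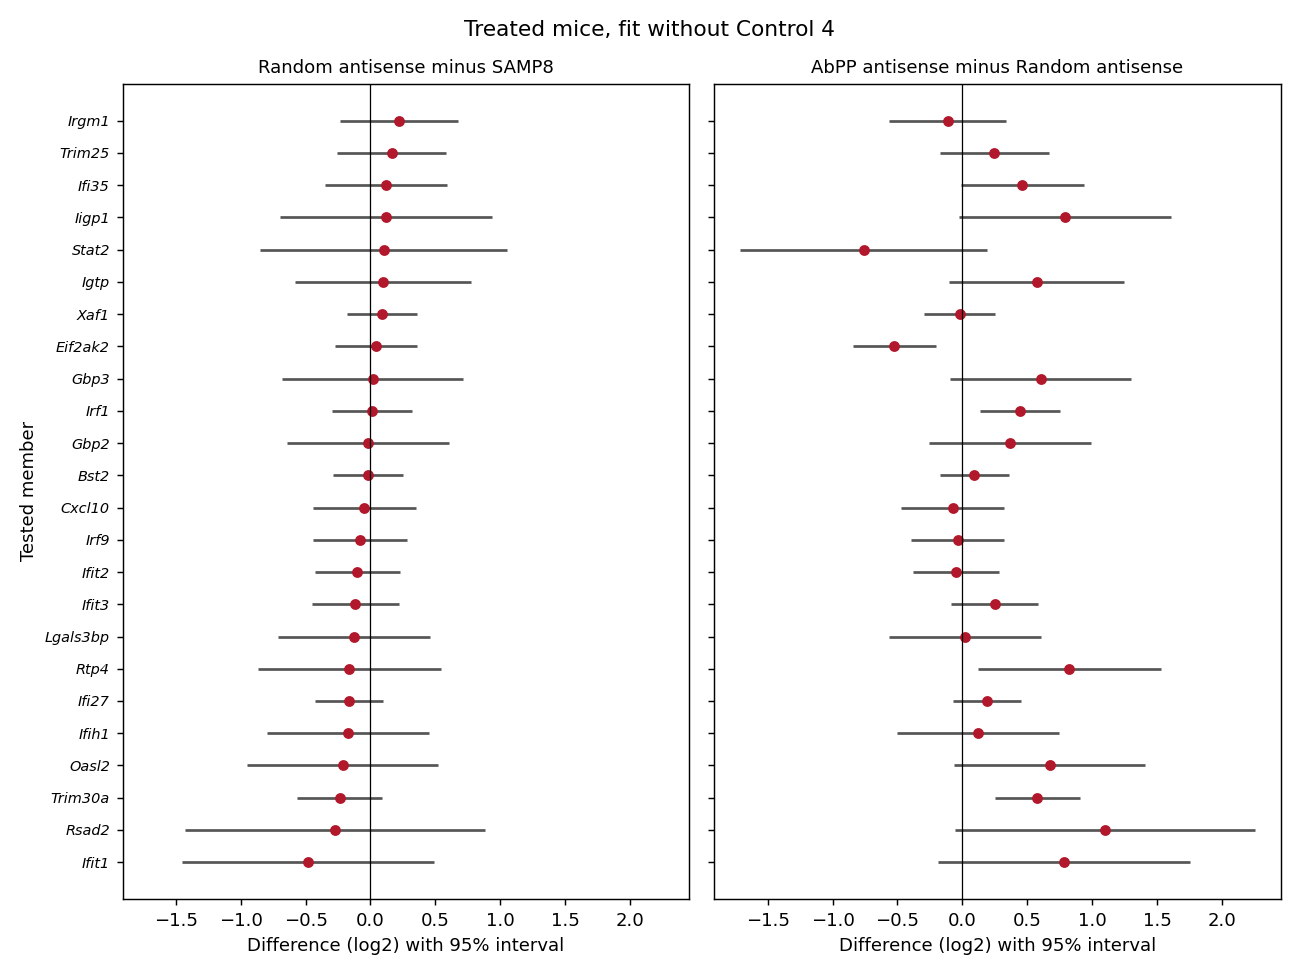
Differences (log2, x axis) with 95% intervals for the 24 tested members (y axis), from the fit without Control 4: Random antisense minus SAMP8 on the left and AβPP antisense minus Random antisense on the right. The left points range from -0.48 to 0.22, while the right points range from -0.76 to 1.10 with 17 above 0.

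Set against untreated SAMP8, AβPP antisense gave a median difference of 0.22, with 17 higher and 7 lower. This comparison shares the AβPP antisense mice with the one above. The highest difference was 0.91 for Iigp1 (adjusted p in limma, 0.374, the lowest) and the lowest was -0.66 for Stat2, and 0 of 24 were called (genes tested, 0.096%), with 0 at an unadjusted p under 0.05 (9.99%). The GTPases were higher for 5 of 5, with a median of 0.62. Without Control 4, 5 members had an unadjusted p under 0.05 (Irf1, Ifi35, Iigp1, Eif2ak2 and Trim30a; genes tested, 15.5%) and 0 were called (0.288%), with the lowest adjusted p in limma at 0.129 for Eif2ak2. Groups overlapped for every member, while 6.93% of genes separated them.

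Within the AβPP antisense group, mouse 2 had the highest level of most members. With Control 4 set aside, it was the highest of 15 arrays for 14 of 24 tested members, against 15.9% of all genes tested, and over 1 log2 above the median of the 16 arrays for 8 of 24, against 2.47%. It was the highest for 5 of 5 GTPases and 5 of 6 antiviral effectors, 3 of 5 remaining members, 1 of 4 RNA sensing genes, 0 of 3 signalling genes and not for Cxcl10. The median deviation was 1.64 for the GTPases and 0.08 for the signalling genes. On Control 4 the corresponding medians were 3.06 and 3.81, and RNA sensing had the highest, 4.04. AβPP antisense 4 was the highest of the remaining 14 arrays for 10 of 24 tested members (41.7%), near the share of all genes tested (33.9%). Its median deviation was 0.25 over the 33 measured members, which include the 9 not tested. Among these 33 it was the highest of the 14 arrays for 45.5%, against 45.9% of the 18193 genes measured. This position is thus not particular to the members.

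Cell type markers differed on AβPP antisense 2 as well, and several also on other mice of the group. Erythroid markers (3 tested of 5 measured) had a median deviation of 4.53 on AβPP antisense 2, with Alas2, the heme synthesis enzyme of red cell precursors, at 9.81. Their median deviation was 2.66 on SAMP8 4, 2.21 on AβPP antisense 4 and -0.55 on Control 4. The 2 not tested, Hba-a1 and Hba-a2, were near the lowest values on AβPP antisense 2, at 2.33 and 2.10. The neutrophil genes S100a8 and S100a9 were at 8.44 and 7.60 on AβPP antisense 2 and at 8.75 and 7.26 on AβPP antisense 4. They were at 6.94 and 5.65 on AβPP antisense 3, 4.47 and 3.66 on AβPP antisense 1, and 12.9 and 11.9 on Control 4. S100a8 was also at 4.12, 5.76 and 5.22 on Control 1 to 3. Other neutrophil genes did not follow: Mpo, Camp and Elane lay between 2.10 and 2.39 on AβPP antisense 1 to 4, near the lowest values. Ngp reached 3.69 on AβPP antisense 2, still under the filter level of 4 log2. Markers shared by all leukocytes had a median deviation of 0.45 on AβPP antisense 2 and 0.97 on AβPP antisense 4, and Ptprc was at 6.04, 6.53, 6.90 and 6.83 on AβPP antisense 1 to 4, so that mouse 2 did not stand apart in these. Hippocampal neuron markers were lower (-1.04), and choroid plexus markers lower still (-3.11, and -2.59, -2.22 and -1.18 on AβPP antisense 1, 3 and 4). Summed levels of the 3 tested erythroid markers were 138.4 to 1600 in AβPP antisense, 107.3 to 119.4 in Random antisense, 96.65 to 426.2 in SAMP8 and 85.13 to 308.4 in Control.

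Between the oligonucleotide groups, without Control 4, Ptprc was higher after AβPP antisense by 1.18 (adjusted p = 0.0498 in limma), S100a8 by 3.79 and S100a9 by 3.38 (each with the same adjusted p; genes tested, 0.131%). With all arrays, 0 markers of either list were called in this comparison in limma, with 0 of 6 leukocyte and 2 of 5 myeloid markers at an unadjusted p under 0.05. Microglia markers had median deviations of 0.48, 0.30, 0.46 and 0.04 on AβPP antisense 1 to 4, and 0 of 14 were called. Choroid plexus markers were lower after AβPP antisense than after the random sequence for 8 of 8 tested, with a median of -2.37. With all arrays, 8 of these had an unadjusted p under 0.05 in limma (genes tested, 8.83%) and 0 were called. Against SAMP8, Kl, Folr1, Kcnj13 and Clic6 were called lower with all arrays, at adjusted p values in limma of 0.00837 to 0.0427 (genes tested, 0.096%). The part of these cells in the levels of the members was not tested.

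**Figure D5:**
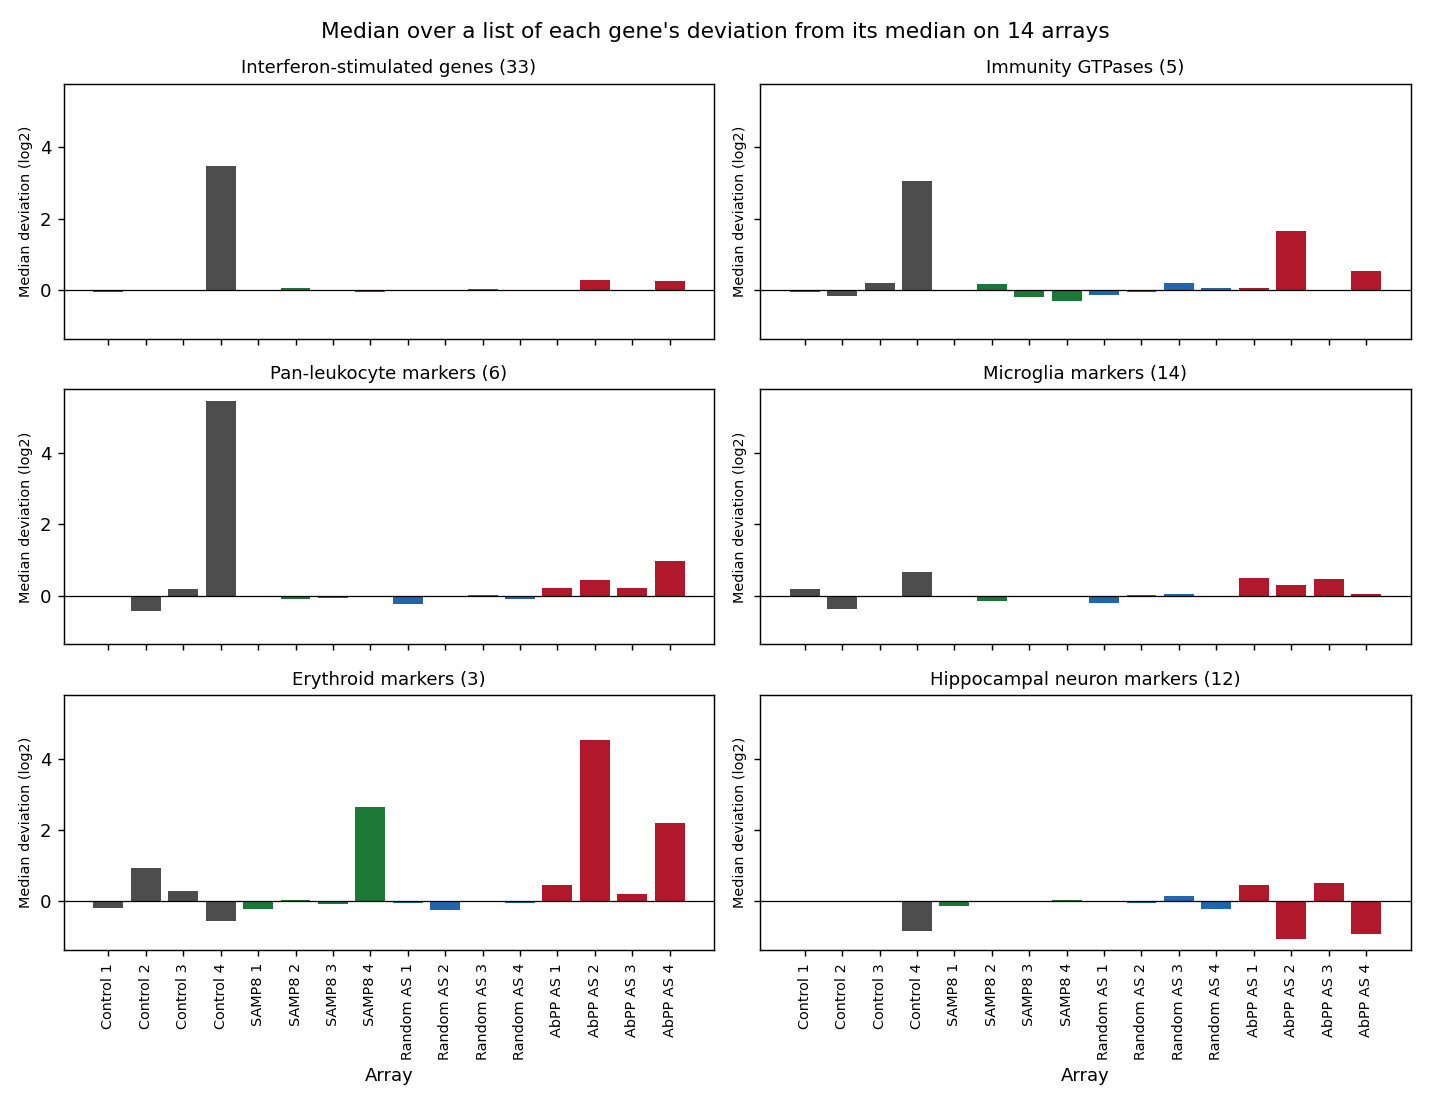
Bars give, for each array, the median over a list of the deviation of each gene from its own median on 14 arrays (log2, y axis), for all 33 measured members, the 5 GTPases and tested markers of 4 cell types. Control 4 is raised for members (3.48), GTPases (3.06) and leukocyte markers (5.46) but not for erythroid markers, and AβPP antisense 2 for GTPases (1.64) and erythroid markers (4.53).

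Interferon genes themselves stayed at the lowest values of the array. Ifnb1 lay between 2.10 and 2.30, Ifng between 2.28 and 2.54 and Ifna1, Ifna2 and Ifna4 between 1.91 and 2.58 on all 16 arrays, Control 4 included, where each of these 5 was lower than on any other array. Control 4 was likewise the lowest array for 45.1% of the 18193 genes measured, so this position is not particular to interferon genes. None of the 5 interferon genes passed the filter on low values. Probe sets at this level cannot distinguish a low transcript level from none.

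Receptor subunits and kinases were measured well above that level. Ifnar1 was at 7.18, 7.51, 7.28 and 8.16 in Control, 7.36, 7.30, 7.57 and 7.60 in SAMP8, 7.44, 7.22, 7.76 and 7.84 in Random antisense and 7.0, 8.18, 7.79 and 7.02 in AβPP antisense. Ifnar2 was at 7.67, 7.37, 7.73 and 9.59 in Control, 7.68, 7.68, 8.04 and 7.86 in SAMP8, 7.27, 7.57, 7.59 and 7.65 in Random antisense and 7.77, 7.89, 7.79 and 7.78 in AβPP antisense. Of the type I receptor, then, Ifnar2 was high on Control 4 alone, while Ifnar1 was as high on AβPP antisense 2 as on Control 4.

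Ifngr1 was at 6.92, 6.87, 6.83 and 9.02 in Control, 6.93, 6.94, 6.66 and 6.88 in SAMP8, 6.73, 6.73, 6.60 and 6.68 in Random antisense and 7.10, 7.12, 7.18 and 7.22 in AβPP antisense. All 4 AβPP antisense mice were above the other SAMP8 mice, and the difference from the random sequence was 0.47 (SE 0.08), with an adjusted p in limma of 0.0453 without Control 4 and 0.625 with it. Ifngr2 was at 7.67, 7.65, 7.61 and 7.60 in Control, 7.5, 7.23, 7.60 and 7.73 in SAMP8, 7.29, 7.56, 7.31 and 6.98 in Random antisense and 7.20, 6.41, 7.79 and 4.57 in AβPP antisense. The second subunit of the gamma receptor was thus inside the range of the other arrays on Control 4 and, like Stat2, lowest on AβPP antisense 4.

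Jak1 was at 10.98, 10.96, 10.97 and 11.16 in Control, 11.01, 10.87, 10.97 and 11.09 in SAMP8, 10.94, 11.01, 10.88 and 10.92 in Random antisense and 11.16, 10.9, 11.16 and 9.68 in AβPP antisense. Jak2 was at 8.63, 8.64, 9.11 and 10.4 in Control, 8.77, 8.80, 8.79 and 8.57 in SAMP8, 8.75, 8.77, 8.90 and 8.78 in Random antisense and 9.28, 9.08, 8.53 and 9.12 in AβPP antisense. Tyk2 was at 5.51, 5.68, 5.0 and 7.22 in Control, 5.56, 5.52, 5.76 and 5.91 in SAMP8, 5.61, 5.67, 5.81 and 5.60 in Random antisense and 6.32, 4.99, 5.65 and 5.95 in AβPP antisense. Jak2 and Tyk2 stood out on Control 4, and Jak1 did not beyond the spread of the other mice.

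Across the wider pathway, written as lists of other genes, Control 4 was the highest array for 10 of 13 tested genes of interferon and receptor signalling, 5 of 8 of nucleic acid sensing and 11 of 16 further interferon-stimulated genes, with median deviations of 1.55, 0.51 and 1.98. Among the further genes, Ifitm3, which blocks viral entry, was at 13.04 on Control 4 and 8.08 to 9.27 elsewhere, and the immunoproteasome subunit Psmb8 at 11.8 and 5.10 to 6.72. Irf8, a factor of myeloid development, was at 9.82 and 3.83 to 5.01. Genes of these lists that were instead highest on another array include the sensor Tlr3 (7.59 on Control 4, 7.81 to 8.81 elsewhere) and the editing enzyme Adar (9.74, and 9.63 to 10.6 elsewhere).

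In the fits with all arrays 0 of these 37 genes were called in any of the 4 comparisons. Counts at an unadjusted p under 0.05 in limma were 0, 0 and 0 for the lists in the order above between the lines, 0, 2 and 1 between the oligonucleotides, 1, 0 and 0 for Random antisense against SAMP8, and 2, 1 and 1 for AβPP antisense against SAMP8 (genes tested, 3.77%, 8.83%, 1.04% and 9.99%). Without Control 4 they were 0, 0 and 1, then 2, 3 and 4, then 3, 0 and 0, then 4, 3 and 6 (genes tested, 3.14%, 14.2%, 2.23% and 15.5%), with Ifngr1 the only gene called. The list medians between the lines were -0.39, -0.12 and -0.34 with all arrays, and -0.02, 0.02 and 0.08 without Control 4.

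Members with the response element pattern in their promoter and members without it were alike on Control 4. The median deviation was 3.18 log2 over 15 measured members with the pattern (1.22 to 5.14) and 3.05 over 9 without it (2.05 to 5.03). On AβPP antisense 2 the medians were 0.61 and 0.32, with ranges from -0.11 to 2.77 and from 0.05 to 1.79.

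Further probe sets of the members were also highest on Control 4 in most cases. Of 53 member probe sets, 47 were highest on Control 4, including 15 of the 20 that were not the brightest of their gene, from 14 genes with more than 1. Those that were not include a further Rsad2 probe set, highest on AβPP antisense 2, and dim probe sets of Ddx58, Dhx58, Rtp4 and Xaf1 that lay under 4 log2 on all arrays. On Control 4 a second Trim30a probe set was 5.74 above the median of the other 15 arrays, beside 5.14 for the one used, and a second Gbp2 probe set 3.53, beside 3.47.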

How the data were processed

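The deposited values are log2 expression levels per probe set, made by the authors with GCRMA (version not given), per the submitters' processing notes. GCRMA corrects background, applies quantile normalization and summarises probes, so a single deviant array also shapes the scale of the others. Per the labels' protocols, cRNA came from 4 µg of total RNA of 1 hippocampus. The 64 control probe sets were removed from 45101, and of the other 45037, 34945 carry 1 symbol in the platform annotation, 932 several and 9160 none.

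Probe sets over 4 log2 on at least 4 arrays (23905) were fitted in limma 3.58.1 (R 4.3.3) as a one-way layout of 4 groups, with Benjamini-Hochberg adjustment over all of them and a threshold of 0.05. Differences carry 95% intervals. Members and lists were chosen with earlier results of these data known, so lists get counts and medians, with no test. Values on every array are given for members and receptor genes named by a rule fixed with the design; others named from the lists were chosen after their values were seen. The treatment label of Random antisense 1 reads untreated, against its title, source and description, and it was kept in Random antisense. Replicate numbers were not treated as pairs in the main fit, and the titles call them only biological replicates. Of 24 same-numbered pairs, 9 had a correlation of deviations over 0.1 (median 0.04). Differently numbered pairs were not set beside them, so these values cannot settle whether the numbers mark a pairing. Both the number of mice, 4 per group, and the spread that Control 4 adds limit the precision. The fit was tested on simulated data, with changes added to 200 probe sets drawn at random from those tested, not from the members. It recovered 45% to 52.5% of changes of 1 log2 and 90% to 94.5% of changes of 2 log2, depending on the comparison. Figures used Python 3.11.15 and matplotlib 3.10.9. Motif shares and sequences come from RefSeq on GRCm38.p6.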

Additional observations from a re-analysis of the deposited data

Results flagged for a closer look

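A mouse far from the other 3 of its group was sought for each of the 33 measured members in each of the 4 groups, from the gap to its nearest neighbour as a share of the range of the group; chance gives about 1 in 20 groups. Of 132 groups, 41 met this, of which 27 were Control 4 standing high. All members were measured on the same arrays, so these groups are not independent. Control 4 was also the highest array for 18% and the lowest for 31.1% of all genes tested. The 1 in 20 is therefore no reference for this count, and the share over all genes is not given.

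On Control 4 the values were 9.99 for Ifit3, 9.49 for Ifit2, 7.41 for Ifit1, 9.51 for Rsad2, 8.66 for Bst2, 7.97 for Mx1, 4.34 for Mx2 and 10.8 for Trim30a among antiviral effectors. Among RNA sensing genes they were 8.75 for Oasl2, 7.91 for Oas1a, 6.91 for Oas2, 9.21 for Trim25, 4.63 for Ddx58 and 6.12 for Dhx58. Signalling genes gave 8.72 for Irf1, 6.24 for Irf7, 8.67 for Irf9, 8.16 for Parp14 and 9.09 for Usp18. The remaining ones were 9.78 for Gbp3, 5.61 for Iigp1, 8.34 for Irgm1, 7.84 for Cxcl10, 11.25 for Ifi35, 8.52 for Lgals3bp, 9.87 for Rtp4 and 9.82 for Xaf1.

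In AβPP antisense, Parp14 was high on mouse 1 (3.01), Ifit3 on mouse 2 (8.62), Bst2 on mouse 3 (4.44) and Ddx58 (3.41) and Mx2 (3.09) on mouse 4, where Stat2 was low (2.98). In Random antisense, Lgals3bp was low on mouse 2 (5.64) and Ifit2 on mouse 3 (7.33), while Xaf1 was high on mouse 3 (7.41) and Oas1a (3.59) and Rsad2 (4.87) on mouse 4. In SAMP8, Cxcl10 (4.96) and Iigp1 (4.18) were high on mouse 2 and Rtp4 was low on mouse 4 (4.98).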

How the results depend on the processing

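In each of the 4 comparisons 0 members were called with the stricter filter (6 log2), no filter, a floor of 4, centring, array weights, a beta-actin covariate, both Control 4 and AβPP antisense 4 left out, another eBayes setting, only the 8 arrays compared, Random antisense 1 placed with SAMP8, or probe sets averaged per gene. Under fits chosen after the data were seen, the count was 1 without Control 4 and AβPP antisense 2 and 2 without these and AβPP antisense 4, both against Random antisense and against SAMP8; against SAMP8 Eif2ak2 had -0.61 (adjusted p = 0.0368 in limma) in the former, and Eif2ak2 -0.51 (adjusted p = 0.0366) and Irf1 0.38 (adjusted p = 0.0322) in the latter. The share of all genes called in these fits is not given, so the counts cannot be set against it. Leaving out 1 mouse at a time gave 0 called in every fit. The median of the members then ran from -1.02 to 0.06 for SAMP8 minus Control (0.06 without Control 4), 0.15 to 0.37 for AβPP antisense minus Random antisense (0.15 without AβPP antisense 2), -0.07 to 0.01 for Random antisense minus SAMP8 and 0.05 to 0.31 for AβPP antisense minus SAMP8. With array weights the first was -0.01. With the replicate number as a block, 0 members were called in each comparison, the medians were -0.70, 0.25, -0.03 and 0.22 in that order, and the block changed no call. Control 4 was the highest array for 95.8% of tested members, and for 95.8% to 100% under other filters, centring or averaging. For single members, 2817 of 2828 values stayed uncalled and moved by less than the spread within groups, Control 4 included. Another 6 became called and 5 moved further. Direction was not part of this count. Control 4 widens the spread used here, so the count says little about how stable the values are. Oasl2 was at -1.32 between the lines with all arrays and at -0.09 without Control 4, and still counted as moving by less than the spread. Between the lines, 1 of the 24 tested members was higher and 23 were lower with all arrays, and 18 were higher and 6 lower without Control 4. Signals under 4 log2 limit what can be said of the 9 untested members.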
